A study of Mus musculus with 8 samples.

Results

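Genes of sterol and fatty acid synthesis, many under the control of SREBP transcription factors, were followed in RNA-seq data from mouse neural progenitor cells. Genes of cholesterol uptake, transport, regulation and export, not all of them SREBP targets, were taken with them. A list of 38 genes was taken by symbol and grouped by role into 18 enzymes of the mevalonate and sterol pathway, 9 genes of cholesterol uptake, transport and regulation, 2 cholesterol exporters and 9 enzymes of fatty acid synthesis. Of these, 37 were found among the 32499 genes of the table, and Hmgcs1 was not analysed here. No measured value was used to choose them, although the list was proposed with earlier results of these data known.

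RNA came from C57BL/6 embryos at embryonic day 14, whose neural tubes were dissociated and sorted with NeuroFluor CDr3, a dye that binds the radial glia protein Fabp7. There were 4 libraries labelled as 53BP1 KO (KO-labelled below) and 4 labelled as control. The KO-labelled embryos carried a CRISPR in-frame deletion of Trp53bp1 from the father and the targeted allele Trp53bp1tm1Jc from the mother, and the controls were wild-type embryos, per the labels' protocols. The protocols allow for culture in a differentiation medium without saying whether any library was cultured, and do not say that replicates came from separate embryos, so the p-values below reflect how far these particular libraries spread, and that spread may be technical.

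Library depth was 11081419 to 24339621 counts in the KO-labelled libraries and 15343046 to 18189045 counts in the controls. Trp53bp1 was at 19.2 to 33.8 CPM (counts scaled to a common library size) in the KO-labelled libraries and 26.4 to 27.2 CPM in the controls. Its log2 fold change was 0.01 (95% interval -0.29 to 0.32, adjusted p = 0.96). No count by exon or by allele was made, so this count of the whole gene neither checks nor contradicts the labels. Xist, the RNA of the inactive X chromosome, had 9 to 16 counts in the KO-labelled libraries and 23853 to 26134 counts in the controls, while the Y-linked Ddx3y had 579 to 1064 counts in the KO-labelled libraries and 0 in every control. Sex and genotype label therefore coincided in 8 of 8 libraries and cannot be told apart in any result below. Of 10 progenitor markers, 5 rose and 3 fell at an adjusted p of 0.05, against 16.1% risen and 13.9% fallen over all genes tested. They summed to 8173 to 11350 CPM in the KO-labelled libraries and 8675 to 10970 CPM in the controls. Fabp7 alone had 7793 ± 1269 CPM in the KO-labelled libraries and 7591 ± 1014 CPM in the controls (SD, n = 4 each). The sums are thus mostly Fabp7 and do not show the other markers, such as Sox2 (log2 fold change 0.78) and Nes (-0.90).

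Cells build cholesterol from acetyl-CoA through mevalonate, isoprenoids, squalene and lanosterol, and the enzymes of this route share control by SREBP2, the product of Srebf2. SREBP precursors sit in the endoplasmic reticulum, where SCAP carries them to the Golgi for cleavage when sterols are low and INSIG proteins hold them back when sterols are high. SREBP1, from Srebf1, acts more on fatty acid synthesis, and the LXR receptors, which sense oxysterols, raise cholesterol export. The brain makes its own cholesterol, since lipoproteins of the blood do not cross into it.

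Promoters of 28 of the 37 genes were found in RefSeq (GRCm38.p6) as windows of 250 bases before and 50 bases after a transcript start. Shown here are the 250 bases upstream of 5 genes, chosen by no fixed rule after the expression values were seen, to show each role: the sterol enzymes Idi1 and Hsd17b7, the regulator Insig1 and the fatty acid enzyme Fasn, which fell, and the exporter Abca1, which rose. Among the 37 genes, Idi1 had the largest fall and Abca1 the largest rise. Capitals mark both CCAAT boxes of Idi1 (which lie on the other strand and so read ATTGG, 45 and 14 bases before the start), the longest stretch that Hsd17b7 and Insig1 share, and the longest stretch that Fasn and Abca1 share. The windows are chr13:8885356-8885605 on the plus strand for Idi1, chr1:169969206-169969455 on the minus strand for Hsd17b7, chr5:28071162-28071411 on the plus strand for Insig1, chr11:120824548-120824797 on the minus strand for Fasn and chr4:53159896-53160145 on the minus strand for Abca1.

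Idi1: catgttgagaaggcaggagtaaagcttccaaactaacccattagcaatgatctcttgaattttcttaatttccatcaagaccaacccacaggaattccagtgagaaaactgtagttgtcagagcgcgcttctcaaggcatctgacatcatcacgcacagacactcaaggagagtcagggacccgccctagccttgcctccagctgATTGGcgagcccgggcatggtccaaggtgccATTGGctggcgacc

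Hsd17b7: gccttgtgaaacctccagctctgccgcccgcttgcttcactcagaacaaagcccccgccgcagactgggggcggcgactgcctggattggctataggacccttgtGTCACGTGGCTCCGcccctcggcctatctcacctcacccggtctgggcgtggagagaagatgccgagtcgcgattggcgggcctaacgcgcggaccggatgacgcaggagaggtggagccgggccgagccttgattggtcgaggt

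Insig1: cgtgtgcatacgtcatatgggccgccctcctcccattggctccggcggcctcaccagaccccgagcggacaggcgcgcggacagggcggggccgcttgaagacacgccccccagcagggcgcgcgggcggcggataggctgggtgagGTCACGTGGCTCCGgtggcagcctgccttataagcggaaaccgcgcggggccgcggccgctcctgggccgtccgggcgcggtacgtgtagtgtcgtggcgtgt

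Fasn: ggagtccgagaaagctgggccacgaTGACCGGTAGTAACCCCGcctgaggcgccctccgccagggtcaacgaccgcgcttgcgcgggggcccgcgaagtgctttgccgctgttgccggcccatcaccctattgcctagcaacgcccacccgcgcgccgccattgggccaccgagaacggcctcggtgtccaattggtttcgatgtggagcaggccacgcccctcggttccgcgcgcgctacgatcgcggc

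Abca1: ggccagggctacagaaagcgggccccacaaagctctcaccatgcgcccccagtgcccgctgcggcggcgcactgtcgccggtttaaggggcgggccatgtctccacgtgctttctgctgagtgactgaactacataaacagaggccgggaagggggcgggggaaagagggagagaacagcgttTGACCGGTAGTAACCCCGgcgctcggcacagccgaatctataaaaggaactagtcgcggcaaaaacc

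Of the 37 genes tested, 24 fell, 4 rose and 9 did not pass, and the falls lay mostly in the enzymes. The enzymes of cholesterol synthesis were lower from its first steps to its last. Of the 17 tested, 16 fell, none rose and 1 did not pass, and for the 16 that fell every KO-labelled library lay below every control. Over all 15021 genes tested, 13.9% fell and 16.1% rose at a Benjamini-Hochberg adjusted p of 0.05 in the edgeR quasi-likelihood fit (30.0% in either direction), and the groups did not overlap in 29.9%, with the KO-labelled libraries lower in 13.9% and higher in 15.9%. The median log2 fold change, KO-labelled over control, was -0.98 for the 17 enzymes and 0.001 for all genes. The 16 that fell had log2 fold changes between -1.54 (Idi1) and -0.70 (Cyp51). The number that fell was 16 without any one of the 8 libraries.

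**Figure D1:**
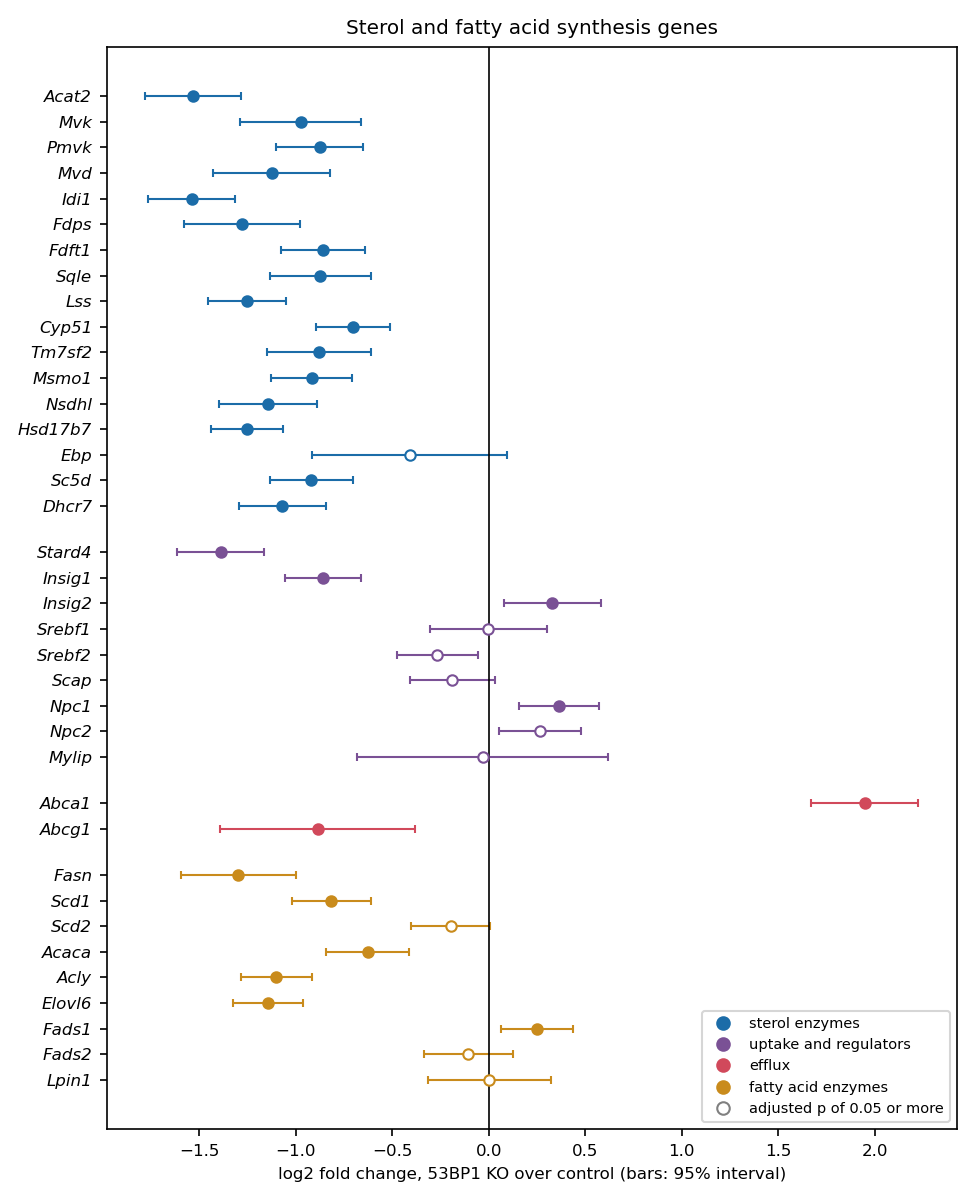
Log2 fold change of each of the 37 genes, KO-labelled over control, in the order of the pathway within each role, with 95% intervals from edgeR; filled points passed the adjusted threshold of 0.05. The sterol enzymes lie between -1.54 and -0.41, Abca1 at 1.95 stands alone on the right, and Srebf1 and Lpin1 sit at 0.

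Levels are given below as CPM scaled by TMM, for replicates 1 to 4 of each group, and a value given with SE and adjusted p is a log2 fold change, KO-labelled over control. Acat2, the cytosolic thiolase that joins the first acetyl-CoA units, had 11.7, 11.4, 11.8 and 10.6 CPM in the KO-labelled libraries, against 38.3, 30.2, 28.8 and 34.2 CPM in the controls. The values of the groups are far apart, and the log2 fold change was -1.53 (SE 0.12, adjusted p = 2.90e-07). Idi1, the isomerase that makes the reactive isoprene unit, had 70.2, 74.3, 89.9 and 63.1 CPM in the KO-labelled libraries, against 223, 222, 211 and 209 CPM in the controls. It was 2.91-fold lower in the KO-labelled libraries, at -1.54 (SE 0.10, adjusted p = 1.05e-07). Lss, which closes squalene epoxide into lanosterol, had 47.9, 54.4, 45.0 and 44.7 CPM in the KO-labelled libraries, against 111, 123, 118 and 105 CPM in the controls. It was 2.39-fold lower in the KO-labelled libraries, at -1.26 (SE 0.09, adjusted p = 2.86e-07). The ketosteroid reductase gene Hsd17b7, which acts in stripping methyl groups from the sterol ring, had 64.9, 68.0, 65.4 and 55.6 CPM in the KO-labelled libraries, against 146, 154, 156 and 149.8 CPM in the controls. Its log2 fold change was -1.26 (SE 0.09, adjusted p = 1.25e-07), and its controls lay within a narrow range. Dhcr7, the reductase that makes cholesterol itself at the end of one branch, had 57.0, 60.2, 52.9 and 50.7 CPM in the KO-labelled libraries, against 120.2, 96.3, 114 and 133 CPM in the controls. The spread was wider among these controls, and the lowest of them was still above the highest KO-labelled library, at -1.07 (SE 0.11, adjusted p = 4.52e-06).

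The other enzymes that passed the test fell as well. In the mevalonate part, the kinase genes Mvk and Pmvk had log2 fold changes of -0.98 (SE 0.15) for Mvk and -0.88 (SE 0.11) for Pmvk, and the decarboxylase gene Mvd one of -1.13 (SE 0.14). Fdps, which makes farnesyl diphosphate, was at -1.28 (SE 0.14). At the entry into sterols, Fdft1, the squalene synthase, was at -0.86 (SE 0.10) and Sqle, the squalene epoxidase, at -0.87 (SE 0.12). Among the enzymes that trim lanosterol, the demethylase Cyp51 had the smallest fall of those that passed, with 391 ± 38.4 CPM in the KO-labelled libraries and 636 ± 28.6 CPM in the controls (SD, n = 4 each). The reductase Tm7sf2 was at -0.88 (SE 0.13), the methylsterol oxidase Msmo1 at -0.92 (SE 0.10) and the desaturase Sc5d at -0.92 (SE 0.10). The decarboxylating dehydrogenase Nsdhl, which lies on the X chromosome, was at -1.14 (SE 0.12), and the groups differ in sex. The exception was Ebp, a sterol isomerase also on the X chromosome, with 2.39 ± 0.679 CPM in the KO-labelled libraries and 3.10 ± 0.427 CPM in the controls. Its log2 fold change was -0.41 (95% interval -0.92 to 0.10, adjusted p = 0.213), and with 37 to 45 counts in the KO-labelled libraries and 43 to 68 in the controls falls as large as those of Cyp51 or Fdft1 lie inside that interval.

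The fall had nearly the same size in every KO-labelled library. The median of the 17 enzymes, as log2 of CPM over the mean of the controls, was -1.02, -1.02, -1.01 and -1.05 in KO-labelled 1 to 4, against 0.04, -0.01, -0.07 and 0.00 in controls 1 to 4. KO-labelled 4 was the lowest of the KO-labelled libraries for 11 of the 17 enzymes. Among the KO-labelled libraries 8 of the 17, such as Idi1, Cyp51 and Nsdhl, were highest in KO-labelled 3 and 8, such as Lss, Hsd17b7 and Dhcr7, in KO-labelled 2.

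**Figure D2:**
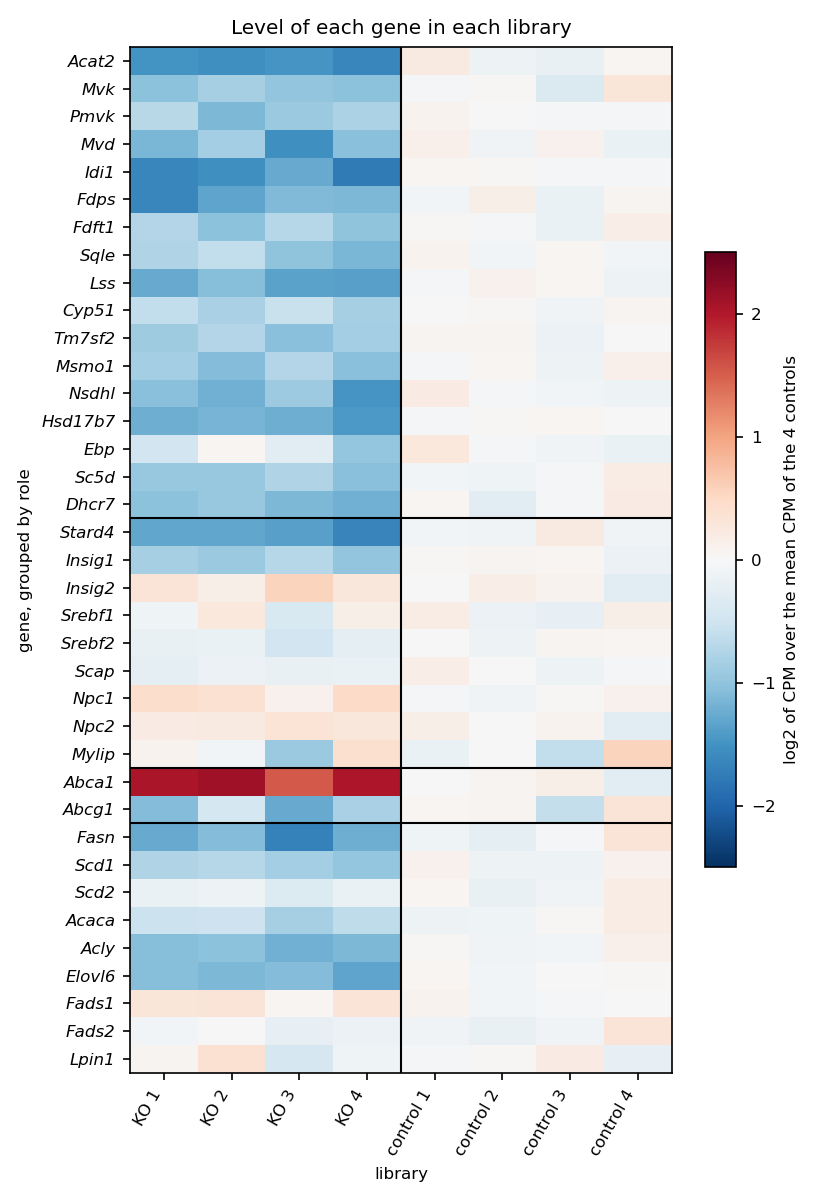
Level of each of the 37 genes in each library, as log2 of its CPM over the mean CPM of the 4 controls, with the KO-labelled libraries left of the line and the roles separated by horizontal lines. The sterol enzymes are blue in all 4 KO-labelled libraries except Ebp, and Abca1 is the only row that is deep red there.

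The genes of sensing and transport did not move as one. Of the 9 tested, 2 fell (22.2%, against 13.9% of all genes), 2 rose (22.2%, against 16.1% of all genes) and 5 did not pass. Their median was -0.03 and changed sign under other settings. Stard4, a cytosolic sterol carrier, had 119, 119, 114 and 92.9 CPM in the KO-labelled libraries, against 277, 274, 338 and 274 CPM in the controls. Its groups are widely separated, at -1.39 (SE 0.11, adjusted p = 3.03e-07). Insig1, which retains SCAP and is itself a target of SREBP, had 943, 881, 1014 and 837 CPM in the KO-labelled libraries, against 1706, 1751, 1713 and 1496 CPM in the controls. It was 1.81-fold lower in the KO-labelled libraries, at -0.86 (SE 0.09, adjusted p = 9.33e-06). Insig2, its relative with the same retaining role, had 38.4, 34.0, 45.2 and 37.5 CPM in the KO-labelled libraries, against 30.5, 34.4, 33.0 and 25.6 CPM in the controls. These groups overlap. The rise of 0.33 (SE 0.12, adjusted p = 0.0474) was small and lost significance without any one library other than KO-labelled 2, with values between 0.24 and 0.38 on the log2 scale and adjusted p between 0.0515 and 0.154 in those 7 fits.

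None of Srebf1, Srebf2 and Scap passed the test. Srebf2 had 51.0, 51.3, 41.3 and 48.8 CPM in the KO-labelled libraries, against 57.7, 52.6, 60.9 and 60.2 CPM in the controls, so that every KO-labelled library was lower, by a small margin. Its log2 fold change was -0.27 (SE 0.10, adjusted p = 0.0524), just outside the threshold, and it passed without KO-labelled 2 (-0.30, adjusted p = 0.0473) or control 2 (-0.32, adjusted p = 0.0496). Srebf1 had 26.0, 33.3, 21.4 and 30.6 CPM in the KO-labelled libraries, against 31.5, 25.0, 24.0 and 30.8 CPM in the controls. The groups overlap fully, at a log2 fold change of 0.00 (95% interval -0.30 to 0.30, adjusted p = 0.991). Scap, the escort of both precursors, had 17.7, 18.9, 18.5 and 18.7 CPM in the KO-labelled libraries, against 23.6, 20.8, 19.2 and 20.4 CPM in the controls, also a small separation, at -0.19 (SE 0.10, adjusted p = 0.184). The interval of Scap was -0.41 to 0.03, so falls as large as those of the 16 enzymes lie outside it. Counts per gene do not measure cleavage of the SREBP proteins.

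Of the lysosomal cholesterol carriers, Npc1 rose and Npc2 did not pass. Npc1, the membrane protein that takes cholesterol out of lysosomes, had 299, 286, 236 and 307 CPM in the KO-labelled libraries, against 214, 205, 223 and 235 CPM in the controls. KO-labelled 3 almost met the highest control. The rise was 0.36 (SE 0.10, adjusted p = 0.0106), and its adjusted p was 0.0503 without KO-labelled 4. Npc2, its soluble partner, had 90.6 ± 4.06 CPM in the KO-labelled libraries and 75.4 ± 9.69 CPM in the controls (SD, n = 4 each), at 0.27 (SE 0.10, adjusted p = 0.0597), which passed only without control 1 among the 8 libraries left out (0.32, adjusted p = 0.0404). Mylip, a ligase that marks lipoprotein receptors for degradation, was near the lower limit of counting, with 23 to 78 counts in the KO-labelled libraries and 25 to 56 in the controls (95% interval -0.68 to 0.62). It did not pass the test, and the width of its interval leaves a change in either direction possible.

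The exporters moved in opposite directions. Abca1, which loads cholesterol onto apolipoproteins and is a target of LXR, had 671, 703, 470.2 and 657 CPM in the KO-labelled libraries, against 164, 169, 179.9 and 135 CPM in the controls. It was 3.86-fold higher in the KO-labelled libraries, at 1.95 (SE 0.13, adjusted p = 8.27e-08), the largest change among the 37 genes. Astrocyte markers were also higher in these libraries (8 of 9 tested rose, values below), and their part in this rise was not tested. Even KO-labelled 3, the lowest of its group, was far above every control. Abcg1, an exporter that LXR also controls, had 2.12, 3.31, 1.86 and 2.56 CPM in the KO-labelled libraries, against 4.60, 4.72, 2.97 and 5.63 CPM in the controls. It fell by 0.89 on the log2 scale (SE 0.24, adjusted p = 0.0111), on 33 to 61 counts in the KO-labelled libraries and 46 to 87 in the controls, and the ranges overlap at KO-labelled 2 and control 3.

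**Figure D3:**
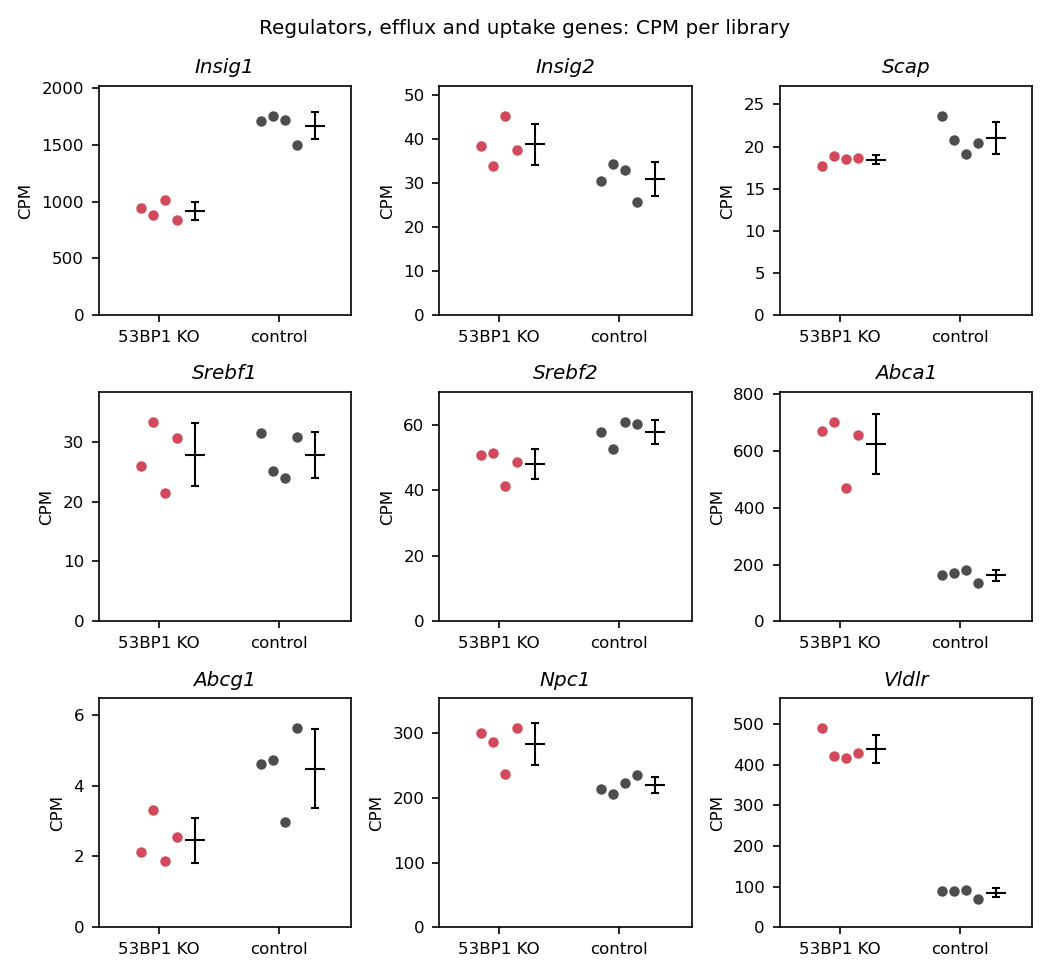
CPM of 9 genes in each library, with KO-labelled libraries in red on the left, controls in grey on the right, and the mean and SD of each group (n = 4 each) beside the points. Insig1 is lower and Abca1, Npc1 and Vldlr are higher in the KO-labelled libraries, without overlap, while Srebf1 overlaps fully.

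The core steps of fatty acid synthesis were also lower. Of the 9 tested, 5 fell, 1 rose and 3 did not pass, against 13.9% fallen and 16.1% risen over all genes. The median was -0.63, against 0.001 for all genes. All 5 that fell had every KO-labelled library below every control, as had 13.9% of all genes. These 5 were picked by the test on the same values, so their lack of overlap is a description only. Acly, which makes cytosolic acetyl-CoA from citrate, had 56.8, 58.2, 51.7 and 54.7 CPM in the KO-labelled libraries, against 121, 111, 114 and 129 CPM in the controls. The 2 ranges are narrow and apart, at -1.10 (SE 0.09, adjusted p = 4.12e-07). Acaca, the carboxylase that makes malonyl-CoA, had 305, 311, 251 and 285 CPM in the KO-labelled libraries, against 406, 412, 455 and 508 CPM in the controls. This was the smallest of the 5 falls, -0.63 (SE 0.10, adjusted p = 0.000292). Fasn, the synthase that builds palmitate, had 590.4, 667, 440.2 and 614 CPM in the KO-labelled libraries, against 1315, 1202, 1394 and 1775 CPM in the controls. It was 2.46-fold lower in the KO-labelled libraries, at -1.30 (SE 0.14, adjusted p = 9.67e-06), with KO-labelled 3 lowest and control 4 highest. Elovl6, which lengthens palmitate to stearate, had 268, 256, 262 and 225 CPM in the KO-labelled libraries, against 577, 534, 553 and 569.7 CPM in the controls. The groups are again far apart, at -1.15 (SE 0.08, adjusted p = 2.51e-07).

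Of the desaturases, Scd1 fell, Fads1 rose slightly, and Scd2 and Fads2 did not pass. Scd1, which puts the first double bond into stearate and palmitate, had 62.4, 64.6, 58.2 and 53.9 CPM in the KO-labelled libraries, against 114, 96.4, 96.9 and 113 CPM in the controls. It fell by 0.82 on the log2 scale (SE 0.10, adjusted p = 2.25e-05). Scd2, the related desaturase known from brain, had 509 ± 31.3 CPM in the KO-labelled libraries and 584 ± 66.3 CPM in the controls (SD, n = 4 each), at -0.20 (SE 0.10, adjusted p = 0.139), with an interval of -0.40 to 0.01. The interval of Scd1 was -1.02 to -0.61, and the difference between the desaturases was not tested. Scd1 and Scd2 are close relatives, and how reads that match both were counted is not stated, so both values are uncertain in that respect. Fads1 and Fads2, the desaturases of polyunsaturated fatty acids, had log2 fold changes of 0.25 (SE 0.09, adjusted p = 0.0447) for Fads1 and -0.11 (SE 0.11, adjusted p = 0.499) for Fads2. The small rise of Fads1 lost significance without KO-labelled 1, 2 or 4 or control 2, 3 or 4 (values between 0.22 and 0.24, adjusted p between 0.0675 and 0.144). Lpin1, a phosphatidate phosphatase of glycerolipid synthesis, had 29.2 ± 6.75 CPM in the KO-labelled libraries and 29.1 ± 3.36 CPM in the controls (SD, n = 4 each), and did not pass (log2 fold change 0.00, 95% interval -0.32 to 0.32).

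Within the KO-labelled group, KO-labelled 3 was the lowest library for 7 of the 9 fatty acid enzymes and for both exporters, and KO-labelled 2 the highest for 7 of the 9 and for both exporters. Among the sterol enzymes KO-labelled 3 was lowest for 2 of 17 and highest for 8. Control 2 was the lowest control for 7 of the 9 fatty acid enzymes and for 2 of the 17 sterol enzymes.

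A further 74 genes of the pathway, in 5 lists, were tested beside these. Of the 72 that could be tested, 19 rose, 18 fell and 35 did not pass (median 0.08), against 16.1% and 13.9% of all genes. The 19 that rose became 12 without KO-labelled 4 or without control 3. Of 12 further genes of the sterol route and its branches 4 rose (33.3%) and 2 fell (16.7%). This list also holds genes outside cholesterol synthesis, and the 4 that rose (Fdxr, Soat1, Cyp7b1 and Cyp27a1) are among these. Fdxr, a mitochondrial reductase that feeds electrons to sterol hydroxylases, was at 0.40 (SE 0.10, adjusted p = 0.00698).

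Of 11 genes of lipoprotein uptake and SREBP2 targets, 2 rose and 4 fell, against 16.1% risen and 13.9% fallen over all genes. Vldlr, the VLDL receptor, which in brain also receives reelin, had 491, 421, 417 and 429 CPM in the KO-labelled libraries, against 90.0, 90.1, 92.6 and 68.9 CPM in the controls. It was 5.14-fold higher in the KO-labelled libraries, at 2.36 (SE 0.11, adjusted p = 1.59e-09), and the groups are separated by a wide gap. Nfe2l1, a transcription factor of the endoplasmic reticulum known to sense cholesterol and proteasome activity, also rose, at 1.47 (SE 0.10, adjusted p = 1.28e-07).

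Of 10 genes of SREBP processing and sterol sensing, 5 rose and 1 fell, against 16.1% risen and 13.9% fallen over all genes. Rnf139 (adjusted p = 0.0475) and Erlin1 (adjusted p = 0.0476, with overlapping groups) were just inside the threshold. Erlin2, which works with ubiquitin ligases of the endoplasmic reticulum, was at 0.40 (SE 0.08, adjusted p = 0.00135). Tmem97, a sterol-regulated membrane protein that lowers NPC1, fell by 0.61 on the log2 scale (SE 0.12, adjusted p = 0.00125). Of 12 genes of LXR and its targets, 2 rose and 10 did not pass, a risen share of 16.7% that is close to the 16.1% of all genes. Apoe, the main lipoprotein carrier of the brain, had 38.6, 52.9, 47.3 and 44.1 CPM in the KO-labelled libraries, against 18.4, 13.1, 15.5 and 10.3 CPM in the controls, a rise of 1.67 (SE 0.16, adjusted p = 2.68e-06). Abca2, a lipid transporter, rose by 0.71 (SE 0.12, adjusted p = 0.000642). Of 27 further genes of fatty acid and glycerolipid synthesis, 6 rose and 11 fell. Aacs, which turns acetoacetate into acetoacetyl-CoA for lipid synthesis, fell by 1.08 on the log2 scale (SE 0.09, adjusted p = 1.36e-06). Fads3, a relative of Fads1 and Fads2, rose by 1.51 (SE 0.13, adjusted p = 8.26e-07), and Dgat2, which makes triglycerides, rose by 1.09 (SE 0.13, adjusted p = 3.50e-05).

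**Figure D4:**
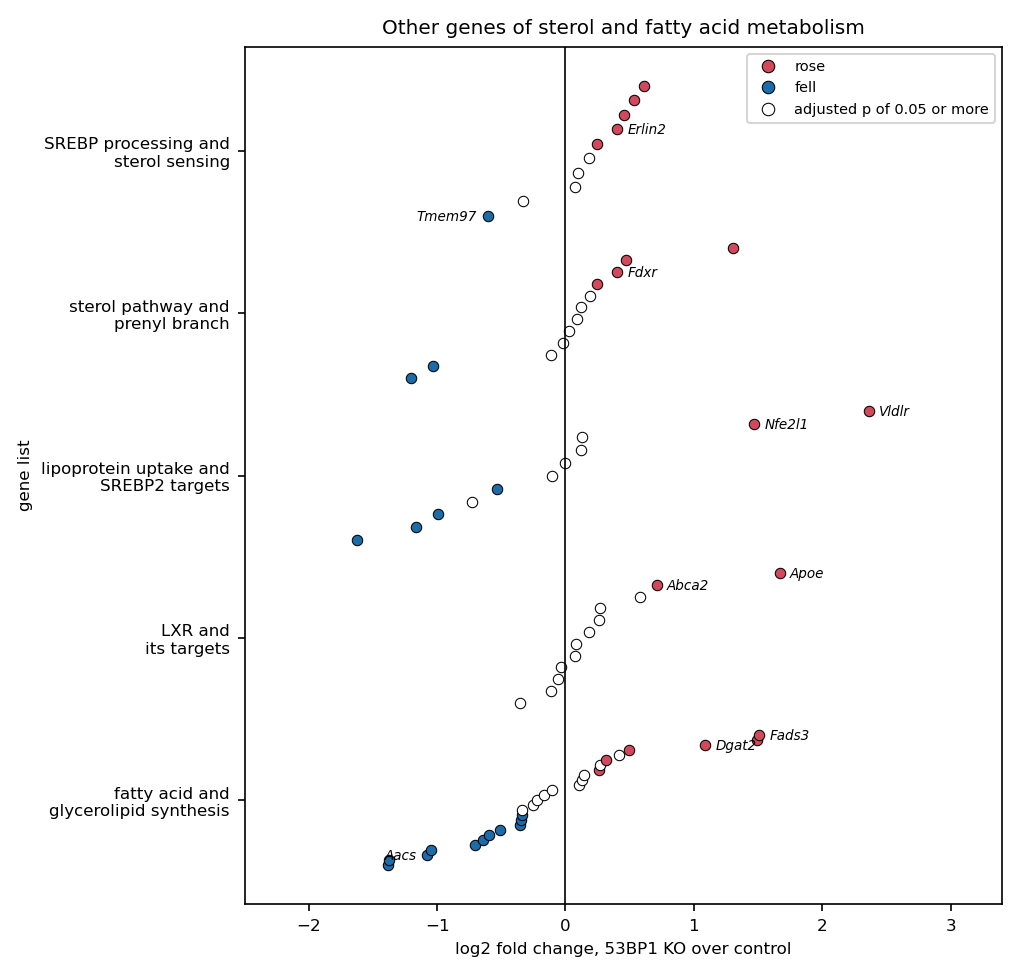
Log2 fold change, KO-labelled over control, of 72 further genes in 5 lists, each point 1 gene, red for rises and blue for falls past the adjusted threshold. Vldlr lies farthest to the right, at 2.36, and Nfe2l1 of the same list lies at 1.47.

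Markers of other cell types did not all move the same way. Over all genes tested, 16.1% rose and 13.9% fell. Of 9 astrocyte markers tested, 8 rose and none fell, and their summed level was 2483 to 2596 CPM in the KO-labelled libraries and 1267 to 1634 CPM in the controls. Apoe, Abca1 and sterol enzymes are known to be expressed by astrocytes. Oligodendrocyte lineage markers summed to 2734 to 3208 CPM in the KO-labelled libraries and 2806 to 3135 CPM in the controls, with 4 of 11 higher and 2 lower. Neuronal markers (2 of 10 higher, 2 lower) summed to 492 to 548 CPM in the KO-labelled libraries and 513 to 676 CPM in the controls. Mesenchymal markers, of which 1 of 6 rose and 4 fell, summed to 38.1 to 48.1 CPM in the KO-labelled libraries and 67.4 to 109.9 CPM in the controls. Endothelial markers (2 of 4 lower) summed to 4.11 to 8.36 CPM in the KO-labelled libraries and 9.87 to 17.2 CPM in the controls, and microglial markers (1 of 3 lower) to 5.02 to 8.97 CPM in the KO-labelled libraries and 5.92 to 11.1 CPM in the controls. Of 7 erythroid markers, 2 were tested and neither passed, and they summed to 1.13 to 3.22 CPM in the KO-labelled libraries and 1.48 to 3.69 CPM in the controls. None of the 8 adipocyte and hepatocyte markers reached the filter, 1 was at 0 in every library, and they summed to at most 1.35 CPM in the KO-labelled libraries and at most 2.39 CPM in the controls. The part of these cell types in the results was not tested, and in sorted bulk samples fewer cells of a type and less RNA per cell cannot be told apart.

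The promoter windows were searched on both strands for letters known to be bound by SREBP and its partners. The CCAAT box (CCAAT), bound by NF-Y, was present in 15 of the 18 genes that fell and had a promoter window, in 6 of the other 10, and in 43.0% of the 10665 genes tested that had one (41.1% of all 27025 genes in the RefSeq promoter table). Among sterol enzymes that fell it was present in 12 of 13. The E-box CACGTG was in 4 of the 18 and 2 of the 10, against 11.3% of tested genes (8.09% of all). The sterol regulatory element written TCACNCCAC was in none of the 28, against 1.44% of tested genes (1.44% of all), and the shorter CACNCCAC, searched after the first gave no match and contained in it, was in 2 of the 28 (Acat2 and Insig1), against 7.63% of tested genes (7.12% of all). No window was found for Abcg1, Fads1, Fdft1, Fdps, Npc1, Scd1, Scd2, Sqle and Stard4, so these letters were not searched in them. A window of 300 bases does not cover every regulatory element, and no match says only that these letters are not in it.

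Further stretches came from comparing the printed promoters of Fasn with Abca1 and of Hsd17b7 with Insig1, and no other pair was compared. Fasn and Abca1, which moved in opposite directions, share the 18 bases TGACCGGTAGTAACCCCG, starting 225 bases before the start of Fasn and 67 bases before that of Abca1. No other gene of the 27025 in the table holds them in its promoter window on either strand. Hsd17b7 and Insig1, which both fell, share the 14 bases GTCACGTGGCTCCG around an E-box, 145 and 103 bases before their starts, and 5 genes of the 27025 hold them in their promoter windows. Both stretches were found after the values were seen and are descriptions only.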

How the data were processed

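RNA-seq was measured in 8 libraries, 4 labelled 53BP1 KO and 4 control. The authors deposited whole-number counts of reads per gene, from a stranded total RNA kit with paired ends, per the labels' protocols. The submitters' processing notes name HTSeq 0.6.1p1 and the builds mm9 and NCBIM37 without giving their roles, and no source used here names the aligner or the strand setting. Without a stated strand, the counts of genes whose exons overlap another gene in GENCODE M21 (Fdft1 with Ctsb, Lss, Cyp51 with Akap9, Tm7sf2 with Vps51, Srebf1 with Rai1, Scap, Npc1 with Rmc1, Scd2) may be affected by it. Overlapping genes with names that begin with Gm were left out of this list.

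Genes were filtered with filterByExpr (10 counts at the median library size, here 0.552 CPM), scaled by TMM and tested over the whole table in edgeR 4.0.16 (glmQLFit and glmQLFTest, R 4.3.3), calling genes at a Benjamini-Hochberg adjusted p of 0.05; 15021 of 32499 genes were tested, and all 37 members found were above the filter level in every library. All adjusted p-values in the text are from this test unless another is named. The SE is the log2 fold change over the square root of F. The fit was tested on simulated data. Members, lists and the named genes were chosen with earlier results of these data known. Values per library are given for up to 5 genes past the threshold in each role, by adjusted p, and for Srebf1, Srebf2, Insig1, Scap, Abca1 and Abcg1, and of the other lists up to 3 genes past the threshold are named, also by adjusted p; some genes this rule selects are not reported here. The rule for promoters asked for a match to TCACNCCAC, which no tested member had, so the printed ones were chosen after the values were seen. In 26 of 28 members 30 bases downstream of the start were found in a GENCODE transcript of the gene in the sense direction. Chromosomes are from RefSeq by symbol. Libraries of a group differed beyond sampling noise (chi-square per degree of freedom 4.45 to 36.2). Alternatives were RLE and upper-quartile scaling, other filters, robust dispersion, DESeq2 1.42.0, limma 3.58.1 voom, a replicate block, leaving out the 5 most abundant RNAs, and leaving out each library.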

Additional observations from a re-analysis of the deposited data

Results flagged for a closer look

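In 102 groups of 4 libraries (51 genes of the pathway, in each genotype label), 7 had 1 library far from the other 3 by Dixon's test, where chance flags about 1 in 20 groups. In the KO-labelled group, Mvk had 7.23 CPM in replicate 2, against 6.33 to 6.48 CPM in the others. Fads1 had 134.4 CPM in KO-labelled 3, against 160.9 to 162.9 CPM, and this library also had the lowest Abca1 and Fasn. Aacs had 124.1 CPM in KO-labelled 1, against 107.8 to 110.3 CPM. Vldlr had 490.6 CPM in KO-labelled 1, against 416.7 to 428.6 CPM in the other KO-labelled libraries, and 68.9 CPM in control 4, against 89.95 to 92.6 CPM in the other controls. Stard4 had 338.5 CPM in control 3, against 273.8 to 276.9 CPM, and Fads2 had 247.3 CPM in control 4, against 174.9 to 186.8 CPM. For Mvk, Aacs, Vldlr and Stard4 the separation of the groups is far wider than these gaps.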

How the results depend on the processing

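Of the 37 genes, 31 kept their direction where called and their side of the threshold under all 17 alternatives, among them 16 sterol enzymes, Stard4, Insig1, Abca1, Abcg1 and the 5 fatty acid enzymes that fell. The other 6 were Ebp, Insig2, Srebf2, Npc1, Npc2 and Fads1. Ebp passed with voom (-0.56, adjusted p = 0.0478). Insig2 did not pass with RLE scaling (0.32), upper-quartile scaling (0.29), the stricter filter of 1 CPM in 4 libraries (0.31), without the 5 most abundant RNAs (0.32), with the replicate block (0.33) or with voom (0.24), and with single libraries left out ran from 0.24 to 0.38. Srebf2 passed with RLE scaling (-0.28), upper-quartile scaling (-0.30), the stricter filter (-0.28) and without the 5 RNAs (-0.27), and ran from -0.32 to -0.20 with single libraries left out. Npc1 ran from 0.32 to 0.44 and Npc2 from 0.17 to 0.32 with single libraries left out, and Npc2 passed with no filter (0.33) and with voom (0.22). Fads1 did not pass with RLE scaling (0.24, adjusted p = 0.0591), upper-quartile scaling (0.21), the stricter filter (0.23), without the 5 RNAs (0.24) or with the replicate block (0.25), and ran from 0.22 to 0.31 with single libraries left out.

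Accordingly, the number of uptake and regulator genes that rose was 1 rather than 2 under RLE and upper-quartile scaling, the stricter filter, without the 5 RNAs and with the replicate block, and from 0 to 2 without single libraries, and the number of fatty acid enzymes that rose was 0 rather than 1 under the same settings and from 0 to 1 without single libraries. The other pathway genes that rose ran from 12 to 19 without single libraries. The median of the sterol enzymes moved by more than the spread between KO-labelled libraries with upper-quartile scaling (-1.015), no filter (-0.91) and voom (-0.91), and ran from -1.08 to -0.91 without single libraries. The median of the uptake genes was above 0 with no filter (0.0431) and voom (0.0936), and ran from -0.20 (without KO-labelled 4) to 0.10 (without KO-labelled 3), being also above 0 without control 4 (0.04). Why these values moved was not tested.

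Replicate numbers were not used as pairs: the correlation of deviations between libraries of the same number was 0.254, 0.279, -0.158 and 0.00987, and only numbers 1 and 2 matched their own best. With the replicate block, 2237 genes rose and 1940 fell, against 2412 and 2087 without it. Low counts limit Ebp, Mylip and Abcg1.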

Other observations

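Several genes of the pathway lists, chosen here after their values were seen, had a control library that stood apart. Thrsp, a gene of lipogenic tissues, had 61.3, 62.6, 72.2 and 66.1 CPM in the KO-labelled libraries, against 33.4, 30.4, 26.6 and 2.20 CPM in the controls. Lrp2, a lipoprotein receptor of the neuroepithelium, had 98.8, 115, 62.2 and 103 CPM in the KO-labelled libraries, against 97.3, 102, 112 and 317 CPM in the controls, and Acss2, which makes acetyl-CoA from acetate, had 157, 141, 164 and 129 CPM in the KO-labelled libraries, against 241, 237, 226 and 135 CPM in the controls. In each case control 4 was the extreme among the controls, and the astrocyte marker Agt had 362, 400.0, 375 and 392 CPM in the KO-labelled libraries, against 89.5, 72.4, 70.7 and 14.9 CPM in the controls, with control 4 lowest as well. Control 4 was also the library with the highest Fasn, Acaca, Acly, Scd2 and Fads2. Among further genes of lipoprotein uptake, Scarb1, a receptor for high-density lipoprotein, fell by 1.00 on the log2 scale (SE 0.14, adjusted p = 9.84e-05) and Lrp8, a reelin receptor related to Vldlr, fell by 0.53 on the log2 scale (SE 0.12, adjusted p = 0.00424).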
